A study of Mus musculus with 8 samples.

Results

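The genes described here are the ligands and co-receptors of the glial cell line-derived neurotrophic factor (GDNF) family and their shared receptor, in dental pulp RNA-Seq of *Tgfbr2cko* and control mice. They were chosen by name, as *Gdnf*, *Nrtn*, *Artn*, *Gfra1*, *Gfra2*, *Gfra3*, *Gfra4* and *Ret*, because *Gfra1* had the largest rise in *Tgfbr2cko* of all genes. Of these 8 genes, 5 are among the 12148 genes with values (*Gdnf*, *Nrtn*, *Gfra1*, *Gfra2* and *Gfra4*), and *Gfra3*, *Artn* and *Ret* were not analysed here. Since *Gfra1* was picked for its rise between the genotypes, its difference is given as a description with no test, and the other 4 members were tested.

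GDNF family ligands are secreted proteins that bind a GFRA co-receptor, a protein held on the outer cell membrane by a lipid anchor. The pair of ligand and co-receptor then brings RET, a receptor tyrosine kinase, into an active complex. GDNF prefers GFRA1, neurturin (the product of *Nrtn*) prefers GFRA2, artemin prefers GFRA3 and persephin prefers GFRA4. This signalling is best known from the ureteric bud of the kidney, the enteric nervous system, sensory and motor neurons and spermatogonial stem cells, and GDNF from dental pulp is known as a trophic factor for the trigeminal nerve fibres that grow into the tooth. GFRA1 can also act without RET, through the neural cell adhesion molecule NCAM1, and can be shed from the cells that make it.

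All mice were C57BL/6J at postnatal day 7 (P7), and each library holds the pulp of left and right first molars. The 4 control libraries carry the genotype label Osterix-Cre control and the 4 mutant libraries the label Osterix-Cre:Tgfbr2f/f, written *Tgfbr2cko* here, so every mouse carried the Osterix-Cre transgene and the genotypes differ by the loxP-flanked *Tgfbr2* alleles. The Osterix promoter drives Cre in the mesenchyme that gives rise to odontoblasts and osteoblasts, and the nerve fibres that enter the pulp have their cell bodies in the trigeminal ganglion, outside the tissue sequenced. The labels do not say that each library came from separate animals, so p-values measure the spread between these libraries, which may be technical.

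Values are log2 CPM, counts scaled to a common library total, and between 8682872 and 13539670 reads per library were counted, so that 1 read is worth 0.0739 to 0.115 CPM. Libraries keep their label numbers, with Osterix-Cre as 49 to 52 and *Tgfbr2cko* as 53 to 56. All 8 odontoblast markers of the list used here were present, at summed levels of 47890 to 102001 CPM in Osterix-Cre and 29351 to 63094 CPM in *Tgfbr2cko*. The deleted gene *Tgfbr2* did not separate the genotypes, with a log2 difference of -0.29 (limma-trend adjusted p = 0.79), and the library labelled *Tgfbr2cko* 56, at 7.61, lay within the control values of 7.16 to 7.64, while *Tgfbr2cko* 55 lay level with the lowest of them. The *Tgfbr2* difference was -0.42 without library 56, -0.39 without Osterix-Cre 49 and -0.42 with limma's library weights, each with an unadjusted p under 0.05 (limma-trend adjusted p = 0.295, adjusted p = 0.569 and adjusted p = 0.198). In the other 16 of 19 alternative fits the unadjusted p was above 0.05, and the smallest difference was -0.22, without *Tgfbr2cko* 54. Library 56 also held enamel matrix RNA, with *Amelx* and *Ambn* at 18.5% of its reads against 0.326% to 2.74% in the other 7. Each member is therefore given with and without library 56. In bulk RNA, fewer cells of a type and less RNA per cell cannot be told apart.

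The sequence before the start of *Gfra1* and of *Gdnf* is shown because these genes encode a co-receptor and its preferred ligand, and the genotypes differ in the receptor of TGF-beta, which acts on genes through SMAD proteins. Letters are from RefSeq on GRCm38, written 5′ to 3′ on the strand of the gene. The RefSeq start of *Gfra1* lies inside the gene as GENCODE M21 annotates it, where an exon of GENCODE begins further upstream, and the bases shown are those before the RefSeq start that no GENCODE exon covers. Capitals mark the SMAD-type motif CAGAC and the TATA box letters TATAAA, each searched on both strands in the 250 bases before the start, and a match on the other strand reads as the reverse complement.
*Gfra1*, chr19:58455399-58455460, minus strand, directly before the RefSeq start: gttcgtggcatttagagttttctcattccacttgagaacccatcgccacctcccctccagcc
*Gdnf*, chr15:7809798-7810047, plus strand: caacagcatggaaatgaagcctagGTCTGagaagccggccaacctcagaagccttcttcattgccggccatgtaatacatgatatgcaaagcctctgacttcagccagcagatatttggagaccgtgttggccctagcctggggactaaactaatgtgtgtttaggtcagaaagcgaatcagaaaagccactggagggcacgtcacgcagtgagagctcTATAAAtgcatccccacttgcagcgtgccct
The *Gdnf* sequence holds CAGAC once, on the other strand at position -226 from the RefSeq start, and TATAAA once, at -31. This RefSeq start lies upstream of the *Gdnf* gene as GENCODE M21 annotates it, which begins at 7810846. A second *Gdnf* start in RefSeq has a window with neither motif. The *Gfra1* window holds CAGAC once, on the other strand at -246, outside the 62 bases printed, and no TATAAA. The windows of *Nrtn* and *Gfra4* hold neither motif, and that of *Artn* holds CAGAC once, on the other strand at -98. *Gfra2*, *Gfra3* and *Ret* were not in the set of windows used here. Of all 32851 windows of 250 bases, 42.2% hold CAGAC and 12.4% hold TATAAA, so a single CAGAC is common in windows of this length.

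**Figure D1:**
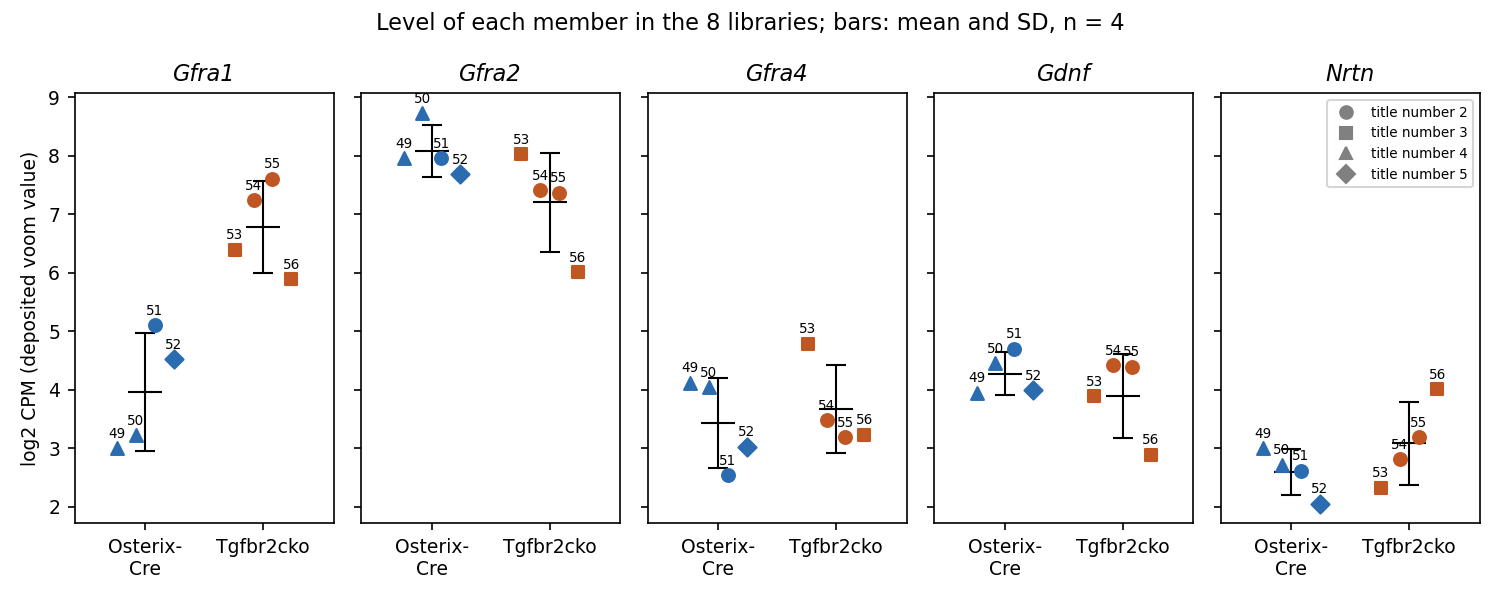
Level of the 5 members in each library, on the log2 CPM scale, for Osterix-Cre (blue, 49 to 52) and *Tgfbr2cko* (orange, 53 to 56). Bars give the mean and SD (n = 4), and the point shapes give the number in the library's title. The *Gfra1* values of the genotypes do not overlap, and those of the other 4 genes do.

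Among the ligands, neither *Gdnf* nor *Nrtn* differed between the genotypes beyond the spread of the libraries. *Gdnf* (ENSMUSG00000022144.3, chromosome 15, 7810846 to 7837575) encodes the founding ligand of the family. Its log2 values were 3.95, 4.45, 4.70 and 3.99 in Osterix-Cre and 3.89, 4.42, 4.39 and 2.89 in *Tgfbr2cko*, from 100 to 262 reads. Mutant libraries 53 to 55 lay among the controls or just under them, and library 56 lay lowest of all 8. The mean ± SD was 4.27 ± 0.37 for controls and 3.90 ± 0.71 for mutants (n = 4 each). The difference of -0.38 (standard error 0.32, 95% interval -1.06 to 0.31) did not pass (limma-trend p = 0.256, adjusted p = 0.914, two-sided exact permutation p = 0.4). Without library 56 the difference was -0.04.

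*Nrtn* (ENSMUSG00000039481.5, chromosome 17, 56751325 to 56757530) encodes neurturin, and had the fewest reads of the members, from 42 to 218. Its log2 values were 3.001, 2.72, 2.62 and 2.06 in Osterix-Cre and 2.33, 2.82, 3.19 and 4.01 in *Tgfbr2cko*. The genotypes overlapped, and library 56, lowest for *Gdnf*, was the highest for *Nrtn*. The mean ± SD was 2.60 ± 0.40 for controls and 3.09 ± 0.71 for mutants (n = 4 each). The difference of 0.49 (standard error 0.34, 95% interval -0.25 to 1.23) did not pass (limma-trend p = 0.177, adjusted p = 0.857, exact permutation p = 0.314). Without library 56 it was 0.18, and without library 53, the lowest mutant, it was 0.74, with an unadjusted p under 0.05 (limma-trend adjusted p = 0.404).

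The levels of *Nrtn* and *Gdnf* were set beside the enamel matrix share of the libraries. The 3 libraries with the most *Amelx* and *Ambn* RNA, Osterix-Cre 49 at 2.14%, *Tgfbr2cko* 55 at 2.74% and *Tgfbr2cko* 56 at 18.5%, were also the 3 highest for *Nrtn*. Among the other 5, with shares under 1%, no such order was seen, and the lowest *Nrtn* was in Osterix-Cre 52, which had the highest share of them, at 0.548%. With the level of the enamel genes in the model the difference of *Nrtn* was 0.16 and that of *Gdnf* was -0.08. The part of enamel tissue in these levels was not tested.

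**Figure D2:**
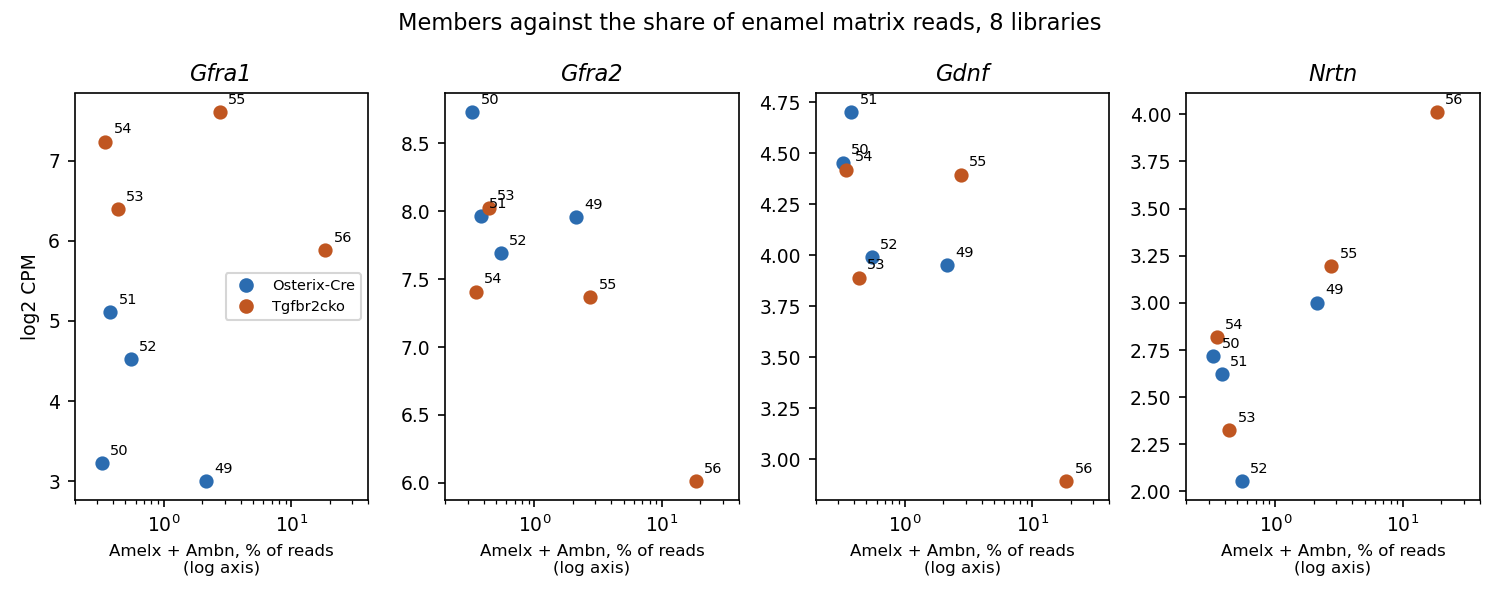
Log2 CPM of *Gfra1*, *Gfra2*, *Gdnf* and *Nrtn* in the 8 libraries against the percentage of reads on *Amelx* and *Ambn* (log axis), with blue points for Osterix-Cre and orange points for *Tgfbr2cko*. Library 56, at 18.5%, is the lowest for *Gfra2* and *Gdnf* and the highest for *Nrtn*, while *Gfra1* is higher in mutants 53 and 54, at low enamel shares, than in any control.

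Among the co-receptors, *Gfra1* was several times higher in *Tgfbr2cko*, *Gfra2* was lower on average with overlapping libraries, and the *Gfra4* libraries of the genotypes were interleaved. *Gfra1* (ENSMUSG00000025089.15, chromosome 19, 58235604 to 58455909, minus strand) encodes the preferred co-receptor of GDNF. Its log2 values were 3.001, 3.23, 5.11 and 4.53 in Osterix-Cre, from 78, 90, 327 and 235 reads. In *Tgfbr2cko* they were 6.40, 7.24, 7.61 and 5.89, from 747, 1855, 1695 and 801 reads. Every mutant library lay above every control library, and within both genotypes the libraries were widely spread.

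The mean *Gfra1* value ± SD was 3.97 ± 1.01 for controls and 6.78 ± 0.78 for mutants (n = 4 each). The difference of 2.82, or 7.05-fold, ranked first among the rises of all 12148 genes, and the next were *H2-T10* at 2.62 and *Fn3krp* at 2.49. Over all genes analysed, every mutant library lay above every control library for 2.13% of genes, from which nothing is read about *Gfra1*, since the same contrast chose it. With any 1 library left out the difference stayed between 2.50 and 3.20, and it was 3.12 without library 56. Exons of *Gfra1* overlap those of the antisense gene *Gm16277* over 7.60% of their length, and reads there cannot be told apart without strand, which the sources used here do not give for the counting.

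The titles of the libraries hold a further number that the labels do not explain, namely 4, 4, 2 and 5 for controls 49 to 52 and 3, 2, 2 and 3 for mutants 53 to 56. The controls with the lowest *Gfra1*, 49 and 50, share title number 4, and the mutants with the highest, 54 and 55, share title number 2. The only number found in both genotypes is 2, where *Gfra1* was 5.11 in the control library 51 and 7.42 on average in mutants 54 and 55, a difference of 2.32 between 1 library and 2. Within that number the other members differed by -0.57 for *Gfra2*, 0.80 for *Gfra4*, -0.30 for *Gdnf* and 0.38 for *Nrtn*. For the other title numbers, genotype and number cannot be told apart.

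*Gfra2* (ENSMUSG00000022103.9, chromosome 14, 70890120 to 70979838) encodes the preferred co-receptor of neurturin. Its log2 values were 7.96, 8.73, 7.96 and 7.69 in Osterix-Cre and 8.02, 7.41, 7.37 and 6.01 in *Tgfbr2cko*, from 874 to 4102 reads. Mutants 54 to 56 lay below all controls, and mutant 53 lay above 3 of the 4 controls. The mean ± SD was 8.08 ± 0.45 for controls and 7.20 ± 0.85 for mutants (n = 4 each). The difference was -0.88 (standard error 0.35, 95% interval -1.63 to -0.13), and the tests gave limma-trend p = 0.0247, adjusted p = 0.429 and exact permutation p = 0.114.

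*Gfra2* was thus the single member of the 4 tested that passed an unadjusted p under 0.05 with a change of at least 1.5-fold, called altered here, and no member passed at an adjusted p under 0.05. Among all genes analysed, 5.77% were altered, which splits into 2.12% higher and 3.65% lower. At an adjusted p under 0.05 the share was 0.947%, of which 0.247% higher and 0.7% lower, and 5.27% of genes had no overlap between the genotypes, against 0 of the 4 tested members. The *Gfra2* call rested on single libraries. The unadjusted p rose above 0.05 without mutant 56, where the difference was -0.48 (limma-trend adjusted p = 0.557), and without Osterix-Cre 50, the highest control, where it was -0.67 (adjusted p = 0.879). The unadjusted p was also above that limit with the enamel genes in the model, at -0.51 (adjusted p = 0.585), and with title number as a block, at -0.57 (adjusted p = 0.99989).

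*Gfra4* (ENSMUSG00000027316.15, chromosome 2, 131039632 to 131043088) encodes the preferred co-receptor of persephin, whose gene *Pspn* was not analysed here. By library, log2 values were 4.12, 4.05, 2.54 and 3.03 in Osterix-Cre and 4.79, 3.49, 3.19 and 3.24 in *Tgfbr2cko*, from 55 to 245 reads. Mutant 53 was the highest and control 51 the lowest, and among the controls the order was the opposite of that of *Gfra1*, with 49 and 50 high and 51 lowest. The mean ± SD was 3.44 ± 0.77 for controls and 3.68 ± 0.75 for mutants (n = 4 each). The difference of 0.24 (standard error 0.41, 95% interval -0.64 to 1.12) did not pass (limma-trend p = 0.564, adjusted p = 0.997, exact permutation p = 0.629). Its sign changed without Osterix-Cre 51, to -0.06, and without *Tgfbr2cko* 53, to -0.13, and without library 56 it was 0.39. Exons of *Gfra4* overlap the microRNA gene *Mir6973b* over 3.70% of their length.

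To compare the members with each other, reads were divided by the exon length of the gene and by the total of the library (RPKM). In Osterix-Cre, *Gfra2* stood highest at 79.7 ± 27.5 RPKM (SD, n = 4), and its range did not overlap that of the next gene. *Nrtn* at 6.03 ± 1.55, *Gdnf* at 5.38 ± 1.38, *Gfra4* at 5.51 ± 2.70 and *Gfra1* at 3.41 ± 2.28 RPKM followed in the order of their mean log2 RPKM. Each of these 4 overlapped its neighbours, so their order in the controls is not resolved.

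In *Tgfbr2cko* *Gfra1* stood second by its mean level. *Gfra2* stood at 46.6 ± 22.6 RPKM (SD, n = 4), *Gfra1* at 22.4 ± 11.3, *Nrtn* at 9.08 ± 4.74, *Gfra4* at 6.61 ± 4.11 and *Gdnf* at 4.38 ± 1.78 RPKM. The ranges of all neighbours overlapped, although *Gfra2* was above *Gfra1* within each of the 4 mutant libraries. Against all 12144 genes with a known length, *Gfra1* stood above 26.2% of genes in Osterix-Cre and above 79.1% in *Tgfbr2cko*. For the other members the percentage of genes below them went from 94.5% to 89.9% for *Gfra2*, from 42.3% to 47.6% for *Gfra4*, from 43.9% to 36.2% for *Gdnf* and from 47.2% to 57.7% for *Nrtn*.

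The make-up of the co-receptor RNA followed from these levels. *Gfra1* was 1.82%, 1.32%, 7.91% and 6.33% of the summed RPKM of *Gfra1*, *Gfra2* and *Gfra4* in the Osterix-Cre libraries, and 15.1%, 34.2%, 41.2% and 32.4% in the *Tgfbr2cko* libraries. The lowest mutant share was above the highest control share, and mutant 53 was the closest to the controls. *Gfra2* made up 88.1%, 92.8%, 88.7% and 88.0% in Osterix-Cre and 72.3%, 59.4%, 53.96% and 54.7% in *Tgfbr2cko*. It was the most abundant co-receptor in all 8 libraries.

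The ratio of *Gfra2* to *Gfra1* RPKM was 48.3, 70.5, 11.2 and 13.9 for controls 49 to 52 and 4.78, 1.74, 1.31 and 1.69 for mutants 53 to 56. The summed level of the 3 co-receptors was 66.3 to 129 RPKM in Osterix-Cre and 33.4 to 102 RPKM in *Tgfbr2cko*, with the lowest sum in library 56. In 56 the *Gfra1* level was the lowest among the mutants while its *Gfra1* share, at 32.4%, was close to that of 54. With the longest transcript in place of all exons as the length, the mean *Gfra1* share was 4.94% in Osterix-Cre and 33.3% in *Tgfbr2cko*, against 4.35% ± 3.28 and 30.7% ± 11.1 (SD, n = 4) with all exons.

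**Figure D3:**
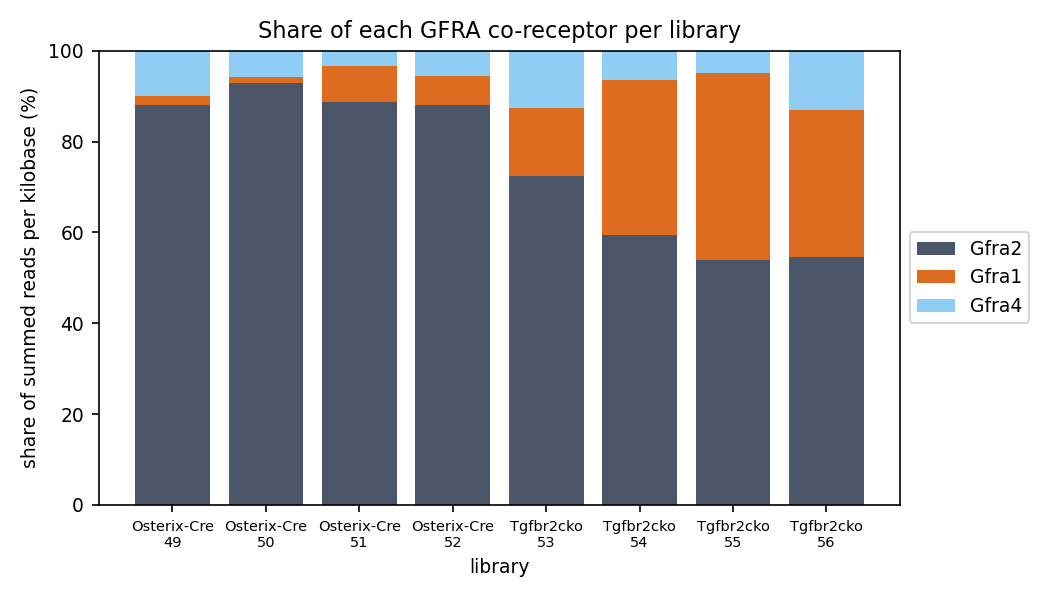
Share of *Gfra1*, *Gfra2* and *Gfra4* in their summed reads per kilobase, as stacked bars from 0 to 100% for each library. *Gfra1* (orange) is 1.32% to 7.91% in the Osterix-Cre libraries and 15.1% to 41.2% in the *Tgfbr2cko* libraries, and *Gfra2* (dark grey) is the largest share in every library.

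The genes through which the family signals were described from lists by role. RET passes its signal through docking proteins and enzymes that bind its phosphorylated tail, among them SHC1, GRB2, the FRS and DOK adaptors and the lipid kinase PI3K. Of 21 such genes listed, 19 were analysed, 0 were altered higher and 1 was altered lower, where 2.12% and 3.65% of all genes were. The differences ran from -0.90 to 0.28, with a median of -0.05 beside -0.01 over all genes. The gene that fell was *Dok2*, a docking protein also known from blood cells, with log2 values of 3.34, 4.04, 4.05 and 3.53 in Osterix-Cre and 3.60, 2.77, 2.45 and 2.55 in *Tgfbr2cko*. Mutants 54 to 56 lay below all controls and mutant 53 among them, for a difference of -0.90 (standard error 0.28, limma-trend p = 0.00734, adjusted p = 0.229, exact permutation p = 0.0857), which was -1.44 with the title number block. Macrophage markers summed to 701 to 1030 CPM in Osterix-Cre and 419 to 894 CPM in *Tgfbr2cko*, with the 419 CPM in library 56. Of these markers 2 of 7 were altered lower, and their part in the *Dok2* difference was not tested.

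RET and other receptor tyrosine kinases, such as the FGF receptors, raise a set of transcription factors (the ETV genes) and of inhibitors that dampen the ERK pathway (the SPRY, SPRED and DUSP genes). Of 10 such genes listed, 7 were analysed, and 2 of them, *Spry1* and *Etv5*, were altered higher, both with an adjusted p under 0.05. None of the 7 was altered lower, and the background was 2.12% of all genes altered higher and 0.247% with an adjusted p under 0.05 and higher. The median difference of the 7 was 0.32, beside -0.01 over all genes.

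*Spry1* (ENSMUSG00000037211.12, chromosome 3, 37639947 to 37644598) encodes an intracellular inhibitor of receptor tyrosine kinase signalling that restrains RET in the kidney. The log2 values of *Spry1* were 2.47, 2.36, 2.44 and 2.70 in Osterix-Cre and 3.80, 4.14, 4.08 and 3.20 in *Tgfbr2cko*, from 49 to 216 reads. All mutants lay above all controls, as in 2.13% of all genes, and the controls were close together. The difference was 1.31 (standard error 0.24), with a limma-trend adjusted p of 0.0205 and an exact permutation p of 0.0286, the smallest that the 70 arrangements allow. With any 1 library left out it was between 1.199 and 1.51, with limma-trend adjusted p from 0.00331 to 0.0857, over 0.05 without library 49, 50, 51, 54 or 55. With title number as a block in the model the difference was 1.67 (limma-trend adjusted p = 0.622).

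*Etv5* (ENSMUSG00000013089.15, chromosome 16, 22381309 to 22439719) encodes a transcription factor of the ETS family that GDNF raises in the ureteric bud and in spermatogonial stem cells. By library, log2 values were 5.64, 5.30, 5.66 and 5.80 in Osterix-Cre and 6.57, 6.98, 6.95 and 5.97 in *Tgfbr2cko*. Every mutant lay above every control, as in 2.13% of all genes, with mutant 56 close above the highest control. The difference was 1.02 (standard error 0.21), with a limma-trend adjusted p of 0.0415 and an exact permutation p of 0.0286. With any 1 library left out it was between 0.90 and 1.23, with limma-trend adjusted p from 0.00183 to 0.147, under 0.05 only without 53 or without 56. With the title number block it was 1.31 (limma-trend adjusted p = 0.571). For both genes, as for *Gfra1*, mutants 54 and 55, which share a title number, lay above 53, and 56 was lowest. Among the controls the order of *Gfra1* was not kept, since *Gfra1* was highest in 51 and both genes were highest in 52.

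The other 5 genes of the list did not pass. *Dusp6*, a phosphatase of ERK, had a difference of 0.38 (limma-trend adjusted p = 0.596), *Spred1* 0.32 (limma-trend adjusted p = 0.685), *Spry2* 0.32 (limma-trend adjusted p = 0.98), *Etv1* 0.21 (limma-trend adjusted p = 0.968) and *Spry4* -0.02 (limma-trend adjusted p = 0.998). Because many receptor tyrosine kinases raise these genes, their levels do not show which receptor acted on them.

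**Figure D4:**
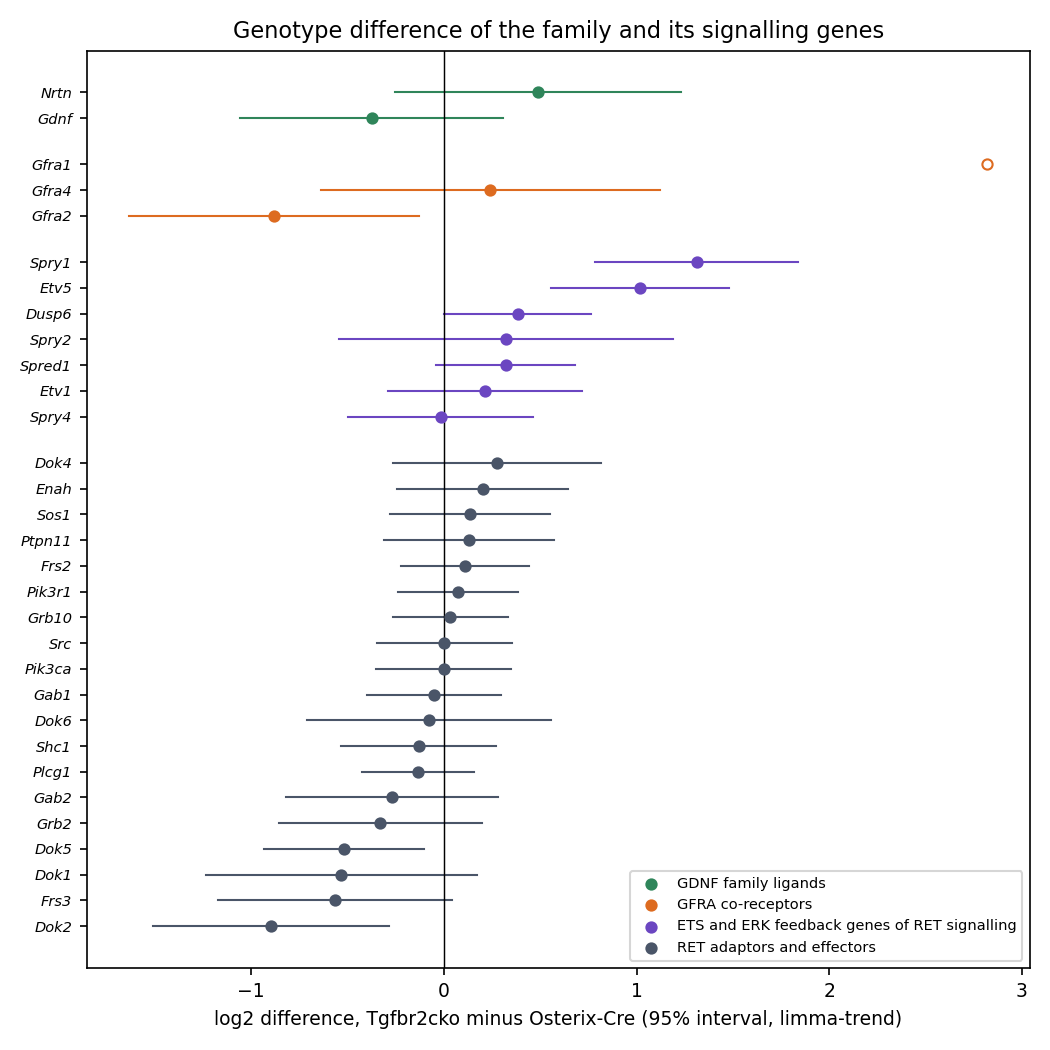
Log2 difference, *Tgfbr2cko* minus Osterix-Cre, of the ligands, the co-receptors, the feedback genes and the adaptors, with the 95% interval of the limma-trend fit. *Gfra1*, the open circle at 2.82, has no interval because it was picked for its difference, and the intervals of *Gfra2*, *Spry1*, *Etv5*, *Dok2* and *Dok5* lie on one side of 0.

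Of 10 other genes whose products bind GDNF or the GFRA proteins or act beside them, 8 were analysed and 1 was altered, higher, beside 2.12% of all genes. It was *Cdh1*, the epithelial cadherin, with a difference of 1.15 (limma-trend p = 0.0373, adjusted p = 0.527, exact permutation p = 0.171), and without library 56, its highest, the difference was 0.55 (limma-trend adjusted p = 0.677). It was 0.59 with the enamel genes in the model and 0.45 with the title number block. *Cdh1* is also a dental epithelium marker, and the 7 of 8 such markers analysed summed to 341 to 533 CPM in Osterix-Cre and 374 to 4457 CPM in *Tgfbr2cko*, with the 4457 CPM in library 56. Of these markers 3 were altered higher, and their part in the difference was not tested. *Ncam1*, the receptor of GDNF and GFRA1 in cells without RET, had a difference of -0.38 (limma-trend adjusted p = 0.548), under the 1.5-fold limit. *Sdc3*, a heparan sulfate proteoglycan that binds the family's ligands, had a difference of -0.31 (limma-trend adjusted p = 0.89).

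Other genes known to act downstream of GDNF, such as *Wnt11* in the ureteric bud, showed 0 of the 6 analysed of 11 listed as altered, with differences from -0.30 to 0.24. Of 21 genes that set the level of *Gdnf* or *Ret* in the kidney, 11 were analysed, and 0 were altered higher and 1 lower, against a background of 2.12% and 3.65%. That gene, *Itga8*, an integrin subunit needed for *Gdnf* in kidney mesenchyme, had a difference of -0.80 (limma-trend p = 0.049, adjusted p = 0.589, exact permutation p = 0.171), and in 9 of 19 other settings its p was above 0.05. Its size also moved, to -0.52 without *Tgfbr2cko* 56, -0.36 with the enamel genes in the model and -1.31 with the title number block. *Fras1*, a matrix protein of the same kidney pathway, was higher in every mutant than in any control, as 2.13% of all genes were, with a difference of 0.56 (limma-trend adjusted p = 0.152) that was just under 1.5-fold.

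The neurotrophins, the other family of trophic factors for the tooth's sensory fibres, and their receptors had 5 of 9 listed genes analysed, with 0 altered higher and 1 lower, beside 2.12% and 3.65% of all genes. *Ngfr*, the p75 receptor shared by the neurotrophins, had log2 values of 2.80, 3.62, 3.65 and 2.66 in Osterix-Cre and 1.96, 2.56, 2.07 and 2.38 in *Tgfbr2cko*. All mutants lay below all controls, by a narrow gap, as was the case for 3.14% of all genes, for a difference of -0.94 (standard error 0.29, limma-trend p = 0.00636, adjusted p = 0.214, exact permutation p = 0.0286). The ligand gene *Ntf3* had a difference of -0.38 (limma-trend adjusted p = 0.859). *Ngfr* is also a Schwann cell marker, and the 6 of 12 Schwann cell markers analysed summed to 161 to 257 CPM in Osterix-Cre and 173 to 230 CPM in *Tgfbr2cko*, ranges that overlap. The highest of these 6 was *Pmp22*, with mean log2 values of 7.16 in Osterix-Cre and 7.12 in *Tgfbr2cko*. Only *Ngfr* of the 6 was altered, and 2 had a difference above 0, with *Mbp* at 0.57 (limma-trend adjusted p = 0.337). Among neuron and axon markers, 4 of 15 were analysed, at 95.7 to 120 CPM in Osterix-Cre and 112 to 187 CPM in *Tgfbr2cko*, with 0 altered. The 187 CPM was that of library 56, and the other mutants reached at most 140 CPM.

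Of 10 TGF-beta ligands, receptors and SMADs, all analysed, 0 were altered higher and 1 lower, where 2.12% and 3.65% of all genes were. *Tgfb1*, a ligand of the deleted receptor, had log2 values of 5.16, 5.34, 5.07 and 4.78 in Osterix-Cre and 4.69, 4.09, 4.71 and 3.99 in *Tgfbr2cko*, each mutant below each control as in 3.14% of all genes. Its difference was -0.72 (standard error 0.21, limma-trend p = 0.00466, adjusted p = 0.179, exact permutation p = 0.0286). With the title number block it was -0.66, with an unadjusted p above 0.05. *Tgfbr1*, the partner receptor of TGFBR2, had a difference of 0.53 (limma-trend adjusted p = 0.218), under 1.5-fold, with every mutant above every control as in 2.13% of all genes.

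Markers of other cells of the tooth were counted in the same way, beside 2.12% of all genes altered higher and 3.65% lower. Pericyte and smooth muscle markers summed to 406 to 540 CPM in Osterix-Cre and 294 to 380 CPM in *Tgfbr2cko*, with 2 of 5 altered lower, and bone and follicle markers to 457 to 519 and 559 to 659 CPM, with 1 of 6 altered, *Ibsp*, which was higher by 1.24. The odontoblast markers had 2 of 8 altered lower, and the 7 enamel markers, at 3965 to 23284 CPM in Osterix-Cre and 4121 to 193233 CPM in *Tgfbr2cko*, had 1 altered lower. That gene, *Klk4*, an enamel protease, had a difference of -2.71 (limma-trend adjusted p = 0.000136). Every mutant, 56 included, lay below every control, as in 3.14% of all genes. The list did not move as one, with differences above 0 for *Amelx*, *Ambn* and *Enam* and below 0 for *Amtn* (-0.89), *Odam* (-0.76) and *Mmp20* (-0.38), none of which passed. Endothelial markers summed to 238 to 336 and 209 to 279 CPM with 1 of 6 altered lower, and erythroid markers to 655 to 1496 and 566 to 2541 CPM with 0 of 5 altered. The highest enamel and erythroid sums, 193233 and 2541 CPM, were those of library 56. The 7 skeletal muscle markers were not analysed here. The part of these cells in the differences of *Gfra1* and of the feedback genes was not tested.

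The genes whose levels were most like those of *Gfra1* over the 8 libraries were ranked by Pearson's r among the 10312 other genes whose mean log2 value was 3 or more. These were *Scd1*, a fatty acid desaturase, with r of 0.98, *P2ry13*, a nucleotide receptor, with 0.98, *Ifngr2*, a chain of the interferon gamma receptor, with 0.97, *Ccn5*, a secreted matrix protein, with 0.97, and *Pcdh18*, a protocadherin, with 0.97. All 8 libraries share the genotype split, which alone gives a high r to any gene that differs, so r was also taken on the deviations from the genotype means. It was then 0.96, 0.91, 0.93, 0.87 and 0.87. Since the genes were picked for a high r over the same 8 libraries, the values within the genotypes are no separate support. Their own differences were 1.11, 1.09, 0.39, 1.78 and 0.49.

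The most opposed genes were *Cd74*, the chaperone of class II antigen presentation, with r of -0.99, *Pdlim7* with -0.96, *Ly6e* with -0.96, *Nhsl2* with -0.95 and *Ndufa4l2* with -0.93. Within the genotypes their r was -0.96, -0.81, -0.84, -0.86 and -0.72. Their differences were -2.21, -0.82, -0.87, -0.42 and -1.34. Controls 49 and 50, low for *Gfra1*, were the highest for these genes, and the title number is shared along with the level, so this ranking describes the libraries.

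**Figure D5:**
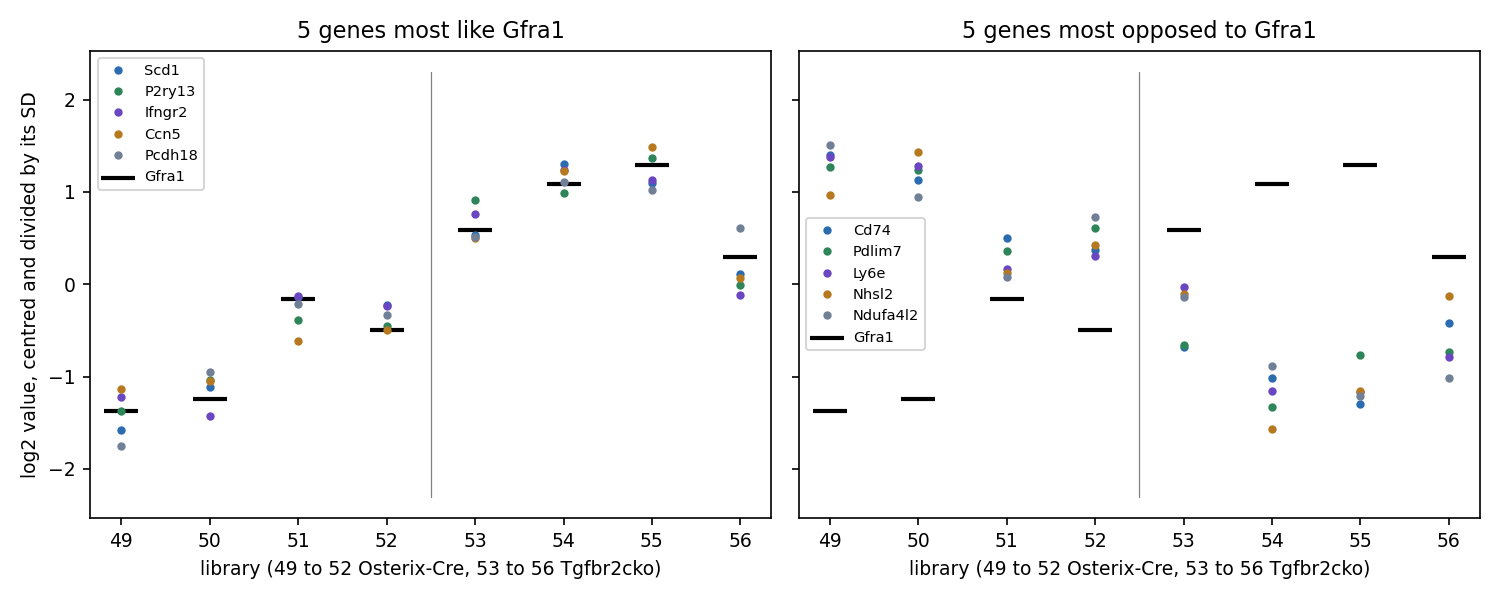
Log2 values of the 5 genes most like *Gfra1* (left) and the 5 most opposed to it (right) in each library, each gene centred on its mean and divided by its SD over the 8 libraries, with *Gfra1* as black bars. Libraries 49 to 52 are Osterix-Cre and 53 to 56 are *Tgfbr2cko*, and on the left the points follow the black bars from the low controls 49 and 50 to the high mutants 54 and 55.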

How the data were processed

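The deposited table holds log2 CPM values that the authors made by trimming reads with fastp 0.21.0, aligning them with HISAT2 2.1.0, counting genes of GENCODE M14 with featureCounts (Subread 2.0.1), filtering genes by the CLEAR workflow for reliable quantification, and applying voom, which adds 0.5 to each count. The submitters' processing notes name the build GRCm38.p5. The strand setting of the counting is not given in the sources used here. By voom's formula all 97184 values gave whole reads within 0.01. Symbols, positions and exon lengths were taken from GENCODE M21 on GRCm38 for 12144 of 12148 identifiers, and 4 had no match.

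Genotypes were compared with limma 3.58.1 in R 4.3.3 (two-sided, with an intensity trend, called limma-trend) on the log2 values of all 8 libraries, tested on simulated data, with Benjamini-Hochberg adjustment of p over all 12148 genes. An exact two-sided permutation test over libraries (scipy 1.17.1) was run for the members other than *Gfra1*, for *Tgfbr2* and for the list genes that passed. At the depth of each library 3 reads correspond to 0.222 to 0.346 CPM. These limits are counting error alone, because the amplified reads carry no molecular identifiers.

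The members and lists were chosen with earlier results of these data known. Named with values were the members analysed, list genes that passed an unadjusted p under 0.05 and 1.5-fold, the 5 genes with the highest and the 5 with the lowest r with *Gfra1*, *Tgfbr2* and the enamel genes. *Ncam1*, *Sdc3*, *Fras1*, *Ntf3*, *Tgfbr1*, *H2-T10*, *Fn3krp*, *Ibsp*, *Klk4*, *Amtn*, *Odam*, *Mmp20*, *Pmp22*, *Mbp* and the feedback genes that did not pass were named after their values were seen.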

Additional observations from a re-analysis of the deposited data

How the results depend on the processing

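Alternatives were no intensity trend, limma's library weights, voom weights on the recovered reads, quantile normalization, centring on the median or the upper quartile, a filter of 3 on the mean log2 value, 2 reads added in place of 0.5, averaging libraries of one genotype and title number, the enamel genes as a covariate, and leaving out each library in turn. Those for the list genes and for the count of feedback genes were chosen after seeing the data. With the enamel covariate the difference of *Gfra2* was -0.51, with p above 0.05, and 0 members were altered. Leaving out 1 library, the difference of *Gfra2* ran from -1.15 to -0.48, with p above 0.05 without Osterix-Cre 50 (-0.67) or *Tgfbr2cko* 56 (-0.48), and that of *Gdnf* from -0.55 to -0.04. That of *Nrtn* ran from 0.18 to 0.74, past the threshold at 0.74 without *Tgfbr2cko* 53. *Gfra4* ran from -0.13 to 0.47, with its sign reversed without Osterix-Cre 51 (-0.06) or *Tgfbr2cko* 53 (-0.13). The count of members altered ran from 0, without Osterix-Cre 50 or *Tgfbr2cko* 56, to 2, without *Tgfbr2cko* 53, where it was 1 in all other settings but the enamel covariate and the title number block. The cause of these changes was not tested. The difference of *Gfra1* ran from 2.53 to 3.07 over the 10 settings with all libraries and no block and was 2.32 with the title number block, and its mean share of the co-receptors from 3.16% to 5.36% in Osterix-Cre and from 27.2% to 35.9% in *Tgfbr2cko* when a library was left out. *Spry1* and *Etv5* were the 2 altered feedback genes in the reported fit, and the count was 2 in all 19 alternatives. Without the intensity trend the adjusted p of *Etv5* in limma was 0.0966. *Cdh1* had a p above 0.05 in 12 of 19 alternatives. Over all genes, library weights gave 92 higher and 166 lower at an adjusted p under 0.05 against 30 and 85, and leaving out Osterix-Cre 51 gave 12 and 53. *Nrtn* and *Ngfr* gave no value with the limit of 3 on the mean log2 value. The title number as a replicate block, chosen after seeing the data, rests on the single number that both genotypes share, 1 control against 2 mutants, and leaves 3 residual degrees of freedom. Under this block the difference of *Gfra2* was -0.57 with p above 0.05, the differences of *Gfra4*, *Gdnf* and *Nrtn* were 0.80, -0.30 and 0.38, and 0 members were altered. In that limma fit 0 genes passed an adjusted p under 0.05, with 126 altered higher and 187 lower, and *Itga8*, *Cdh1* and *Tgfb1* had a p above 0.05. Depth limits *Nrtn*, *Gfra4* and *Gdnf*, with at most 262 reads per library, and the *Gfra1* level of controls 49 and 50, with 78 and 90 reads. Depth also limits altered list genes, with 49 to 216 reads per library for *Spry1*, 47 to 158 for *Dok2* and 34 to 119 for *Ngfr*.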
